A study of Mus musculus with 17 samples.

Results

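The genes described here are the inhibitors of DNA binding Id1, Id2 and Id3 and the E-protein genes Tcf3, Tcf4 and Tcf12. They were taken by name as the 6 genes of this antagonist pair among the 18194 genes measured, and 19 of the 34958 probe sets annotated to a single gene symbol belong to them. Id1 and Id3 had 1 probe set each, Id2 and Tcf3 had 3 each, Tcf4 had 6 and Tcf12 had 5. All 6 genes passed the filter on low signal, and 18 of the 19 probe sets did, the exception being Tcf4 probe set 1416725_at. Where a gene had several probe sets, the one with the highest mean over all arrays stands for the gene and the others are given beside it. In the mouse assembly GRCm38.p6, Id1 lies on chromosome 2 (152736251 to 152737410), Id2 on chromosome 12 (25093799 to 25096092), Id3 on chromosome 4 (136143822 to 136145392), Tcf3 on chromosome 10 (80409541 to 80433976), Tcf12 on chromosome 9 (71844252 to 72111893) and Tcf4 on chromosome 18.

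Total RNA of the homogenized thymus of 17 C57Bl/6 mice was hybridized to Affymetrix mouse genome-wide arrays, 1 array a mouse. Thymic lymphomas came from 8 Tcf1-/- mice (ΔVII/ΔVII), tumor-free thymi from 4 Tcf1-/- mice of the same genotype, here called Tcf1-/- thymi, and control thymi from 5 Tcf1+/- mice (wt/ΔVII), which also carry 1 mutant allele. The deletion is constitutive, so every cell type of the Tcf1-/- thymus lacks the normal gene, and no wild type thymus was part of the comparison. The labels give no ages, and Tcf7, the gene that encodes Tcf1, was not analysed here, so the genotype could not be checked on its own transcript. T-cell markers were present in all groups, with a summed linear signal over 7 genes of 37624 to 46790 in lymphomas, 27813 to 34736 in Tcf1-/- thymi and 45321 to 55130 in Tcf1+/- thymi. The array values are deposited log2 signals, on which a difference of 1 is a 2-fold change, and on every array the median probe set lay between 5.23 and 5.47.

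Id proteins have a helix-loop-helix domain but no basic region to bind DNA. They pair with E proteins and keep them from the E-box, the short DNA motif through which E proteins activate or restrain their targets. In the thymus the products of Tcf3 (E2A) and Tcf12 (HEB) drive gene rearrangement and the passage through the early and double-positive stages, and Id3 is induced when the pre-T-cell receptor or the T-cell receptor signals. Id2 is needed for natural killer (NK) and other innate lymphoid cells and is also made by many myeloid cells, Id1 is best known as a target of bone morphogenetic protein signals, and the product of Tcf4 (E2-2) maintains plasmacytoid dendritic cells. Tcf3 and Tcf4 must not be mistaken for the Wnt effectors of the TCF/LEF family that are also called TCF3 and TCF4. The probe sets used here carried the gene identifiers of the E-protein genes.

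The promoters of Id2 and Id3 are shown because the transcripts of these genes differed in opposite directions between the tumor-free groups. Each is the stretch of 250 bases before the RefSeq start site, read 5′ to 3′ on the strand of the gene, and capitals mark matches to the E-box CANNTG, which reads the same on both strands.
Id2, chr12:25096093-25096342, minus strand: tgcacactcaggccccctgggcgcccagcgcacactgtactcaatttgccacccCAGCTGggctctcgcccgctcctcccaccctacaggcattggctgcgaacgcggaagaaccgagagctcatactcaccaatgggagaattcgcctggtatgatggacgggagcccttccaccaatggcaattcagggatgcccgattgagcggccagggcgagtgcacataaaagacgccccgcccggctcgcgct
Id3, chr4:136143572-136143821, plus strand: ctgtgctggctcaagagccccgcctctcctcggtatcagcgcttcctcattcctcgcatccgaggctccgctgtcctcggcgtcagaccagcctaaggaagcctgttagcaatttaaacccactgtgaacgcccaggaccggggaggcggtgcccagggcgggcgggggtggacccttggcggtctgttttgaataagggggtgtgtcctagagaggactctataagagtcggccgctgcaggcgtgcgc
The Id2 window held 1 E-box, CAGCTG, whose first base lay at position -196 from the start site, and the Id3 window held none. Of 32851 RefSeq promoter windows of 300 bases, which also cover the first 50 transcribed bases, 72.3% held an E-box and 16.3% held CAGCTG. The TCF/LEF core CTTTGA, searched on both strands as CTTTGA or TCAAAG, was found in 16% of all windows and in none of the 6 windows of Id2, Id3, Tcf3 and Tcf12. The E-box CAGGTG, or CACCTG on the other strand, was found in 20.2% of all windows and in none of these 6. These matches describe letters in a window and no binding was measured.

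Before the results, 2 properties of the arrays bear on them. The arrays of lymphoma replicates 1 and 2 and of Tcf1+/- replicates 1 and 2 had a narrower spread of log2 values, with an interquartile range of 2.93 to 3.06, against 3.49 to 3.75 on the other 13 arrays. No array of a Tcf1-/- thymus was among these 4, and values without them are given beside the results they moved most. Transcripts of the Y chromosome were found in 2 of 8 lymphomas, 4 of 4 Tcf1-/- thymi and 4 of 5 Tcf1+/- thymi. In homogenized tissue, fewer cells of a type and less RNA per cell cannot be told apart.

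**Figure D1:**
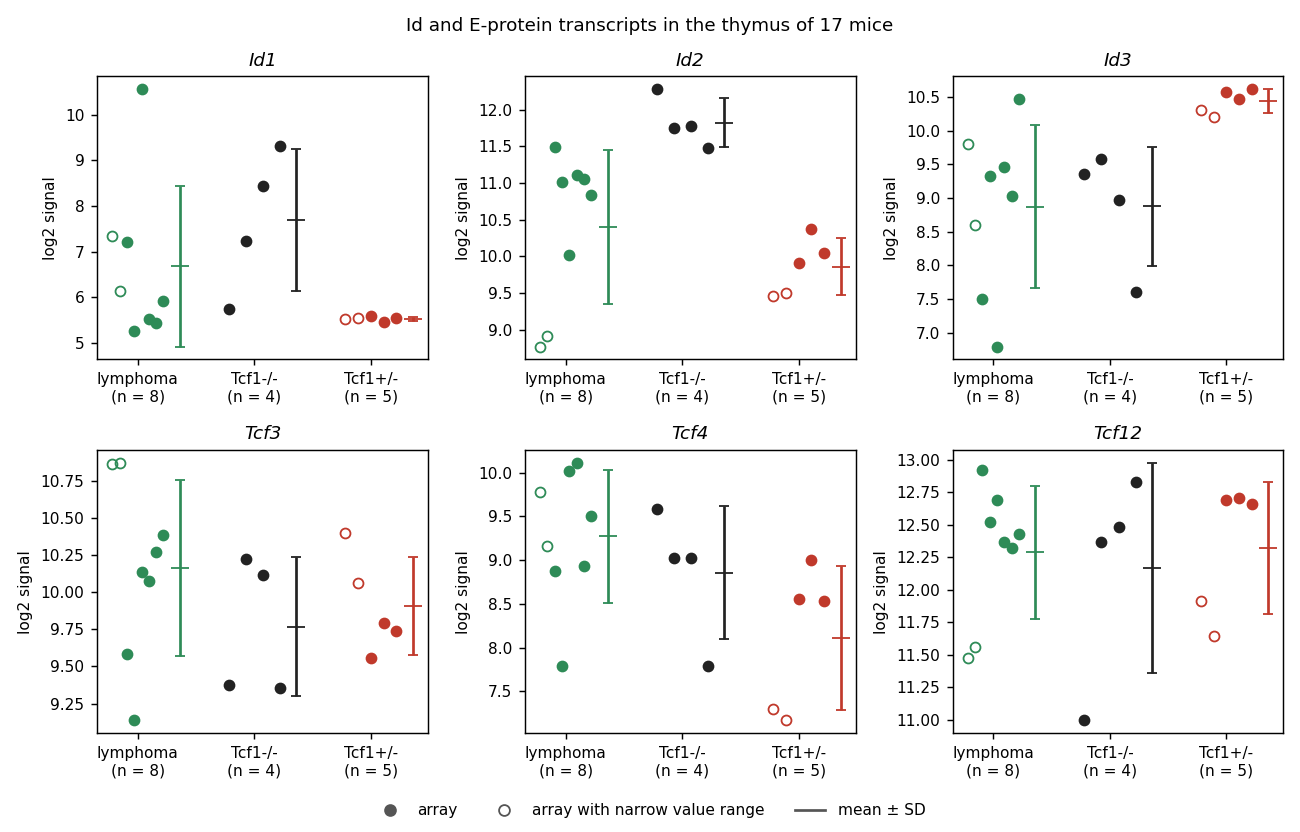
Log2 signal of the 6 genes (main probe set) on each array of lymphomas, Tcf1-/- thymi and Tcf1+/- thymi, with the mean and SD beside the points. Open circles are the 4 arrays with a narrower spread of values. Id2 lay higher and Id3 lower in all 4 Tcf1-/- thymi than in any Tcf1+/- thymus, and Id1 in the 5 Tcf1+/- thymi lay between 5.45 and 5.58.

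Between the tumor-free groups, the Id transcripts differed and the E-protein transcripts did not pass the test. Id1 and Id2 were higher and Id3 was lower in Tcf1-/- thymi than in Tcf1+/- thymi. These were 3 of the 6 genes, where the same test called 14.8% of all 13756 genes tested (10.1% higher and 4.7% lower). The 3 genes were also those whose groups did not overlap, which held for 17.3% of all genes.

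Id2 had log2 signals of 12.28, 11.75, 11.78 and 11.48 in the 4 Tcf1-/- thymi, against 9.46, 9.50, 9.91, 10.38 and 10.05 in the 5 Tcf1+/- thymi. Every Tcf1-/- thymus lay above every control. The difference was 1.96 (standard error 0.23, adjusted p = 0.000489 from limma), and its exact two-sided permutation p was 0.0159, the smallest that 4 against 5 mice can give. The other 2 probe sets of Id2 were higher as well, by 1.85 for 1422537_a_at and by 3.13 for 1453596_at (adjusted p = 0.00196 and 0.0220 when limma was fitted to all probe sets). On 1453596_at the Tcf1-/- thymi were uneven, at 9.84, 8.62, 8.70 and 5.28, and replicate 4 stood only just above the highest control at 5.12. The call of Id2 held in all 9 fits that left out 1 mouse (1.81 to 2.09) and without the arrays of narrow spread, where the difference was 1.71.

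Id3, the Id gene that follows receptor signals in thymocytes, had log2 signals of 9.36, 9.58, 8.97 and 7.60 in Tcf1-/- thymi, against 10.30, 10.20, 10.58, 10.47 and 10.61 in Tcf1+/- thymi. All 4 Tcf1-/- thymi lay below the controls, replicate 4 by the most. The difference was -1.56 (standard error 0.35, adjusted p = 0.0130 from limma, exact permutation p = 0.0159). It passed in all 9 fits without 1 mouse (-1.79 to -1.13) but not when all 17 arrays shared 1 variance (adjusted p = 0.106).

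Id1 had log2 signals of 5.74, 7.23, 8.45 and 9.33 in Tcf1-/- thymi, against 5.51, 5.53, 5.58, 5.45 and 5.53 in Tcf1+/- thymi. The controls were tightly grouped near the median of all probe sets, while the Tcf1-/- thymi spread from just above them to far above. The difference of 2.16 passed (standard error 0.57, adjusted p = 0.0291 from limma, exact permutation p = 0.0159). The call did not survive in 8 of the 9 fits that left out 1 mouse (differences 1.62 to 2.32, adjusted p = 0.0512 to 0.0897). It held only without Tcf1-/- replicate 1 (2.81, adjusted p = 0.00145), and it was lost when all 17 arrays shared 1 variance (adjusted p = 0.140). Setting aside the arrays of narrow spread gave the same difference of 2.16, which then missed (adjusted p = 0.0759), while Id2 and Id3 passed there and 22.1% of all genes were called.

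The Tcf1-/- thymi also held more signal on the macrophage, B-cell and NK-cell marker lists than Tcf1+/- thymi. All 10 macrophage and monocyte markers, 8 of 9 B-cell markers and all 5 NK-cell markers tested were higher in Tcf1-/- thymi. Of the markers of double-positive thymocytes, 6 of 7 were lower. Over all genes, 10.1% were higher and 4.7% lower there. Ncr1 of the NK-cell list did not pass the filter on low signal but is in the sum below. Klrb1c of that list had no probe set among those used. The summed signal of 6 NK-cell markers was 2736 to 10289 in Tcf1-/- thymi, against 683 to 1188 in Tcf1+/- thymi. That of 10 macrophage and monocyte markers was 12573 to 52262 in Tcf1-/- thymi, against 2474 to 5433 in Tcf1+/- thymi. That of 9 B-cell markers was 8266 to 34739 in Tcf1-/- thymi, against 932 to 1481 in Tcf1+/- thymi, with the B-cell factor Pax5 not passing the test (difference 0.08). The double-positive markers summed to 11715 to 19513 in Tcf1-/- thymi, against 47583 to 66086 in Tcf1+/- thymi.

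Within the 4 Tcf1-/- thymi, replicate 1 had the highest NK-cell sum (10289) with the highest Id2 and the lowest Id1. Replicate 4 had the lowest NK-cell sum (2736) with the lowest Id2, the lowest Id3 (7.60) and the highest Id1. The macrophage sums, 52262 in replicate 1 and 12573 in replicate 4, and the B-cell sums, 34739 and 8266 in the same mice, had the order of the NK-cell sums. Id1 ran in the reverse order, from 5.74 in replicate 1 to 9.33 in replicate 4. Thymic epithelial markers followed neither order, with sums of 1449, 1374, 1087 and 3529 in Tcf1-/- replicates 1 to 4, against 539 to 1087 in Tcf1+/- thymi, so that replicate 4, with the highest Id1, stood apart. None of the 8 epithelial markers passed between these groups. The part of these cells in the differences of Id1, Id2 and Id3 was not tested.

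**Figure D2:**
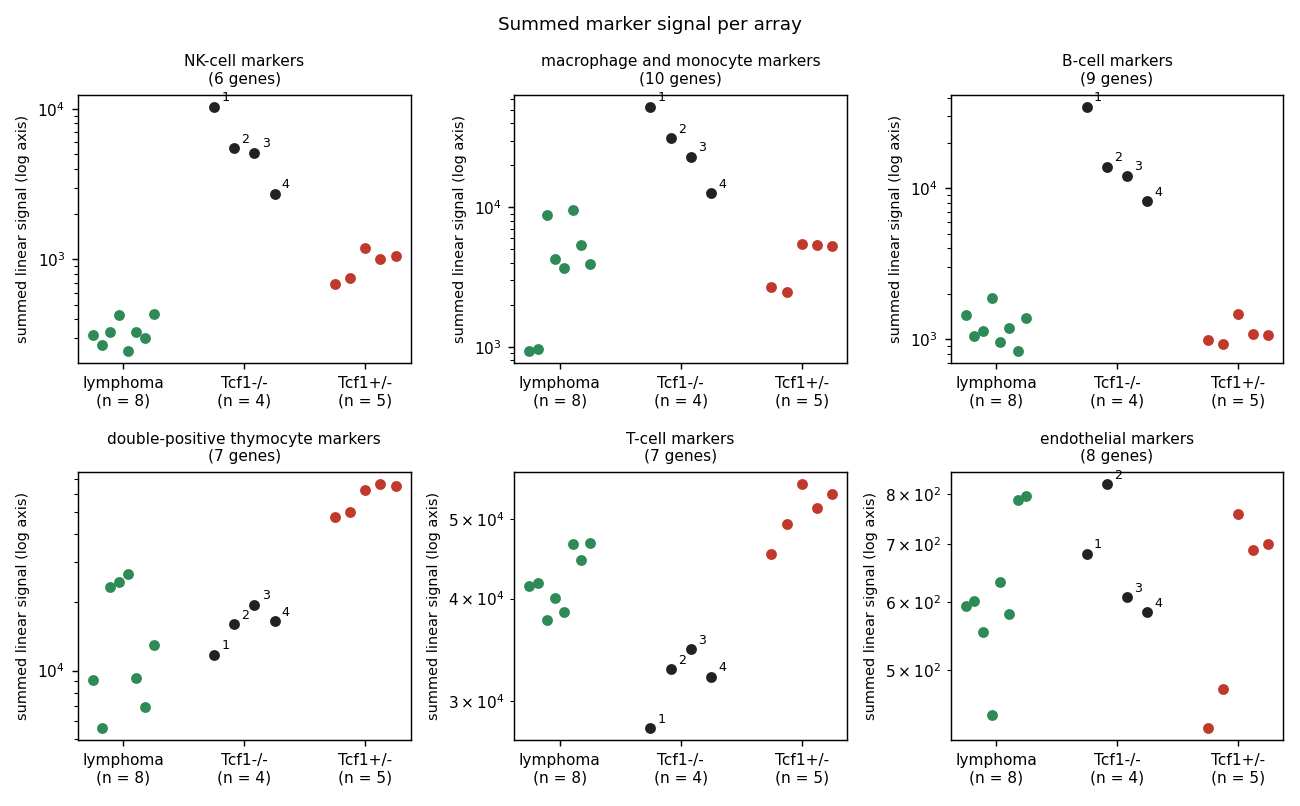
Summed linear signal of 6 marker lists on each array of lymphomas, Tcf1-/- thymi and Tcf1+/- thymi, on a log axis, with mouse numbers beside the Tcf1-/- thymi. The NK-cell sums of Tcf1-/- thymi (2736 to 10289) lay above those of lymphomas (247 to 438) and of Tcf1+/- thymi (683 to 1188), and the double-positive sums were highest in Tcf1+/- thymi.

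In lymphomas Id1 and Id3 varied widely from mouse to mouse (SD 1.76 and 1.21). The SD of Id2 was 1.05 over all 8 lymphomas but 0.49 over the 6 on arrays of ordinary spread. Against Tcf1-/- thymi, no member passed in the main fit, where 14.7% of all genes did (6.34% higher and 8.35% lower), and no member's ranges were apart, which held for 10.7%. Set against Tcf1+/- thymi, none passed either, where 12.7% of all genes did (8.49% higher and 4.21% lower). Id2 came nearest against Tcf1-/- thymi, and Id3 and then Tcf4 against Tcf1+/- thymi. In these comparisons Id2 and Id3 were called under some of the alternatives, and Tcf4 in 1 fit without 1 mouse. Without the arrays of narrow spread, Id2 was the only member called against Tcf1-/- thymi (17.8% of all genes called, 8.61% lower) and no member was called against Tcf1+/- thymi (11.4%, of which the higher ones were 5.43% of all genes).

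Id3 ranged from 6.79 over a median of 9.17 to 10.47 in the 8 lymphomas, against 10.20 to 10.61 in Tcf1+/- thymi, with lymphoma replicates 5 and 3 lowest at 6.79 and 7.50. Only lymphoma replicate 8, at 10.47, reached the range of the controls, and the other 7 lay below it. The difference from Tcf1+/- thymi was -1.56 (standard error 0.50), which narrowly missed (adjusted p = 0.0535 from limma), while its exact permutation p was 0.00466 and its exact Mann-Whitney p 0.00622. With the mouse numbers as a replicate block, over the 5 numbers that both groups share, it was -2.03 and passed (adjusted p = 0.0304). The same 5 pairs without the block also passed (adjusted p = 0.0395). Without lymphoma replicates 1, 5 or 8 the difference passed too (-1.70, -1.27 and -1.79, adjusted p = 0.0440, 0.0459 and 0.0253). These were 3 of the 13 fits without 1 mouse, and the others missed (adjusted p up to 0.114 from limma). Of 16 other alternatives 6 passed, and the fit without the arrays of narrow spread missed. Against Tcf1-/- thymi, whose Id3 values of 7.60 to 9.58 lay inside the range of the lymphomas, Id3 differed by -0.01 with a standard error of 0.61 (adjusted p = 0.996).

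Like Id3, the double-positive markers were mostly lower in lymphomas. Of 7 tested, 6 were lower in lymphomas than in Tcf1+/- thymi, where 4.21% of all genes were lower. The sums were 5575 to 26555 in lymphomas and 47583 to 66086 in Tcf1+/- thymi. Without the arrays of narrow spread, 4 of the 7 were lower, as were 6% of all genes. Among lymphomas the order was another one, since replicates 5 and 3, with the lowest Id3, had 2 of the 3 highest double-positive sums (26555 and 23273). The part of these cells in the difference of Id3 was not tested.

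Id2 ranged from 8.77 over a median of 10.92 to 11.49 in lymphomas, against 11.48 to 12.28 in Tcf1-/- thymi and 9.46 to 10.38 in Tcf1+/- thymi. Of 8 lymphomas, 7 lay below the lowest Tcf1-/- thymus, 5 lay above the highest control and 2 below the lowest control. Set against Tcf1-/- thymi the difference was -1.42 with a standard error of 0.49 (adjusted p = 0.0703 from limma, exact permutation p = 0.00808). The difference passed on the other 2 probe sets, at -1.41 for 1422537_a_at and -2.21 for 1453596_at (adjusted p = 0.0421 and 0.0436 in the fit of all probe sets). Leaving out lymphoma replicate 3 it was -1.58 and passed (adjusted p = 0.0435). No other of the 12 fits that left out 1 mouse passed (adjusted p up to 0.212 from limma). Over 16 other alternatives the difference ran from -1.78 to -0.80, and 7 of them passed. Among the arrays of ordinary spread it was smaller but more even, at -0.90 with a standard error of 0.26, and passed (adjusted p = 0.0389).

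From Tcf1+/- thymi, lymphomas differed in Id2 by 0.54 (standard error 0.45, adjusted p = 0.528), and its direction depended on the set of arrays. On the arrays of narrow spread, lymphoma replicates 1 and 2 had 8.77 and 8.91, against 9.46 and 9.50 in Tcf1+/- replicates 1 and 2. On the other arrays, lymphomas had 10.01 to 11.49, against 9.91 to 10.38 in Tcf1+/- thymi, a difference of 0.80 (standard error 0.28, adjusted p = 0.0932). On probe set 1453596_at all 8 lymphomas (5.20 to 6.86) lay above all controls (4.82 to 5.12), a difference of 0.91 (adjusted p = 0.0507 from limma, exact permutation p = 0.00155). Groups that did not overlap, in either direction, were found for 6.67% of all genes on their main probe sets. The share over all probe sets was not counted.

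Macrophage markers moved with Id2 among the lymphomas. Lymphoma replicates 1 and 2, with the lowest Id2, had the lowest macrophage and monocyte sums (934 and 960), and replicates 3 and 6, with the highest Id2 (11.49 and 11.11), had the highest sums (8726 and 9597). Replicates 1 and 2 are on arrays of narrow spread. Tcf1+/- replicates 1 and 2, also on such arrays, had sums of 2657 and 2474, against 5248 to 5433 in the other Tcf1+/- thymi. At this low end, cell content and array cannot be told apart. Among lymphomas on the other arrays, replicate 5 had the lowest Id2 (10.01) and the lowest sum (3687). Against Tcf1-/- thymi, 9 of 10 macrophage and monocyte markers, 8 of 9 B-cell markers and all 5 tested NK-cell markers were lower in lymphomas. Of all genes, 8.35% were lower there. The NK-cell sums of the lymphomas, 247 to 438, lay below those of Tcf1+/- thymi, 683 to 1188. Of the NK-cell markers, 3 of 5 were lower in lymphomas than in Tcf1+/- thymi (4.21% of all genes). None of the 10 macrophage and monocyte markers passed there. The part of these cells in the differences of Id2 was not tested.

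Id1 was near the level of the controls in several lymphomas and high in 1. It ranged from 5.25 over a median of 6.03 to 10.56 in lymphomas, against 5.74 to 9.33 in Tcf1-/- thymi and 5.45 to 5.58 in Tcf1+/- thymi. Lymphoma replicate 5 stood alone at 10.56, replicates 1 and 3 followed at 7.35 and 7.21, and replicates 4 and 7 lay below every control at 5.25 and 5.42. Of 8 lymphomas, 5 lay above the highest control. The differences were -1.01 from Tcf1-/- thymi (standard error 0.92, adjusted p = 0.500 from limma) and 1.15 from Tcf1+/- thymi (standard error 0.71, adjusted p = 0.358). Without 1 mouse the first ran from -1.66 (without Tcf1-/- replicate 1) to -0.47 (without Tcf1-/- replicate 4), and was -1.57 without lymphoma replicate 5. The second ran from 0.59 to 1.35 and was lowest without lymphoma replicate 5. None of these passed.

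**Figure D3:**
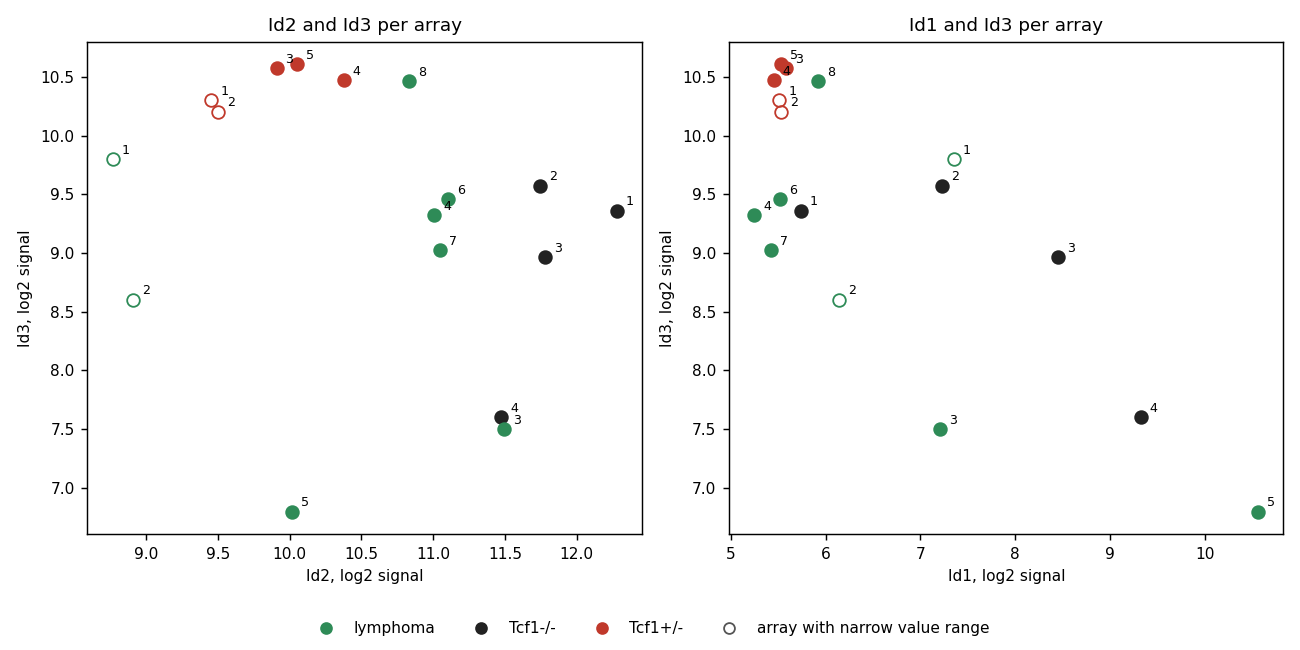
Id3 against Id2 (left) and against Id1 (right), as log2 signal on each array, with mouse numbers. Open circles are the 4 arrays with a narrower spread of values. The Tcf1+/- thymi lie together at high Id3 (10.20 to 10.61) and low Id1 (5.45 to 5.58), and lymphoma replicate 5 combines the lowest Id3 (6.79) with the highest Id1 (10.56).

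The E-protein genes did not pass in any of the 3 comparisons. Tcf12, which encodes HEB, had log2 signals of 11.48 to 12.92 in lymphomas with a median of 12.40. It had 11.00, 12.37, 12.48 and 12.83 in Tcf1-/- thymi, against 11.92, 11.64, 12.69, 12.71 and 12.66 in Tcf1+/- thymi. The low values were those of the 4 arrays of narrow spread (11.48 to 11.92) and of Tcf1-/- replicate 1 (11.00), and all others lay at 12.32 or above. The differences were -0.15 in Tcf1-/- thymi against Tcf1+/- thymi (standard error 0.38), 0.12 in lymphomas against Tcf1-/- thymi (0.35) and -0.04 in lymphomas against Tcf1+/- thymi (0.27), with adjusted p of 0.853, 0.857 and 0.963 from limma. Without the arrays of narrow spread these differences were -0.52 (standard error 0.40), 0.37 (0.31) and -0.14 (0.15), and none passed (adjusted p = 0.390, 0.429 and 0.562).

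The second Tcf12 probe set, 1421908_a_at, split the arrays in the same way, at 9.12 to 9.68 on the arrays of narrow spread, 9.63 in Tcf1-/- replicate 1 and 10.68 to 12.37 on the rest. The 3 dimmer probe sets, 1439209_at, 1446294_at and 1439619_at, were 0.70 to 1.05 higher in lymphomas than in Tcf1-/- thymi, and none passed (adjusted p = 0.217 to 0.435).

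Tcf3, which encodes the E2A proteins, ranged from 9.14 over a median of 10.20 to 10.87 in lymphomas. It had 9.37, 10.22, 10.11 and 9.35 in Tcf1-/- thymi, against 10.40, 10.06, 9.55, 9.79 and 9.74 in Tcf1+/- thymi. The highest lymphomas, replicates 1 and 2 at 10.86 and 10.87, were again on arrays of narrow spread, and the groups overlapped. The differences were -0.14 in Tcf1-/- thymi against Tcf1+/- thymi (standard error 0.25), 0.40 in lymphomas against Tcf1-/- thymi (0.32) and 0.26 in lymphomas against Tcf1+/- thymi (0.27), with adjusted p of 0.787, 0.438 and 0.651 from limma. Without the arrays of narrow spread the first was 0.073 and the second 0.16, and neither passed (adjusted p = 0.862 and 0.724). Over the other 2 probe sets, 1427764_a_at and 1452542_x_at, the differences ran from -0.01 to 0.45 and none passed. A name ending in _x_at marks probes that can also bind other transcripts.

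Tcf4, which encodes E2-2, was the E-protein gene nearest to the threshold. It ranged from 7.78 over a median of 9.33 to 10.11 in lymphomas. It had 9.59, 9.03, 9.02 and 7.79 in Tcf1-/- thymi, against 7.30, 7.17, 8.55, 9.00 and 8.54 in Tcf1+/- thymi. Of 8 lymphomas, 5 lay above the highest control and none below the lowest. The difference between lymphomas and Tcf1+/- thymi was 1.16 (standard error 0.41, adjusted p = 0.0781 from limma, exact permutation p = 0.0311). With lymphoma replicate 4 left out it was 1.37 and passed (adjusted p = 0.0187).

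The low controls of Tcf4 were the arrays of narrow spread, at 7.30 and 7.17. Without those 4 arrays the difference between lymphomas and Tcf1+/- thymi was 0.51 (standard error 0.46, adjusted p = 0.499). The other 5 Tcf4 probe sets were 0.10 to 0.44 higher in lymphomas than in Tcf1+/- thymi, and none passed. Against Tcf1-/- thymi the main probe set was 0.41 higher in lymphomas (standard error 0.42) while the other 5 were lower, with differences of -0.64 to -0.03, so the sign depended on the probe set. In Tcf1-/- thymi against Tcf1+/- thymi all 6 probe sets were higher, by 0.12 to 0.97, and none passed (adjusted p = 0.363 for the main one). The main difference of 0.75 was 0.16 without the arrays of narrow spread (standard error 0.39, adjusted p = 0.800). Plasmacytoid dendritic cells depend on E2-2. Of 7 tested markers of these cells, 4 were higher and 1 was lower in Tcf1-/- thymi than in Tcf1+/- thymi. Without those arrays, 2 were higher and 1 lower. Over all genes, 10.1% were higher and 4.7% lower, or 10.3% and 11.8% without those arrays. The summed signal of this list, which holds the double-positive marker Ccr9 as well, was lower in every Tcf1-/- thymus (11463 to 16691) than in any Tcf1+/- thymus (20202 to 21651). Their part in the Tcf4 values was not tested.

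**Figure D4:**
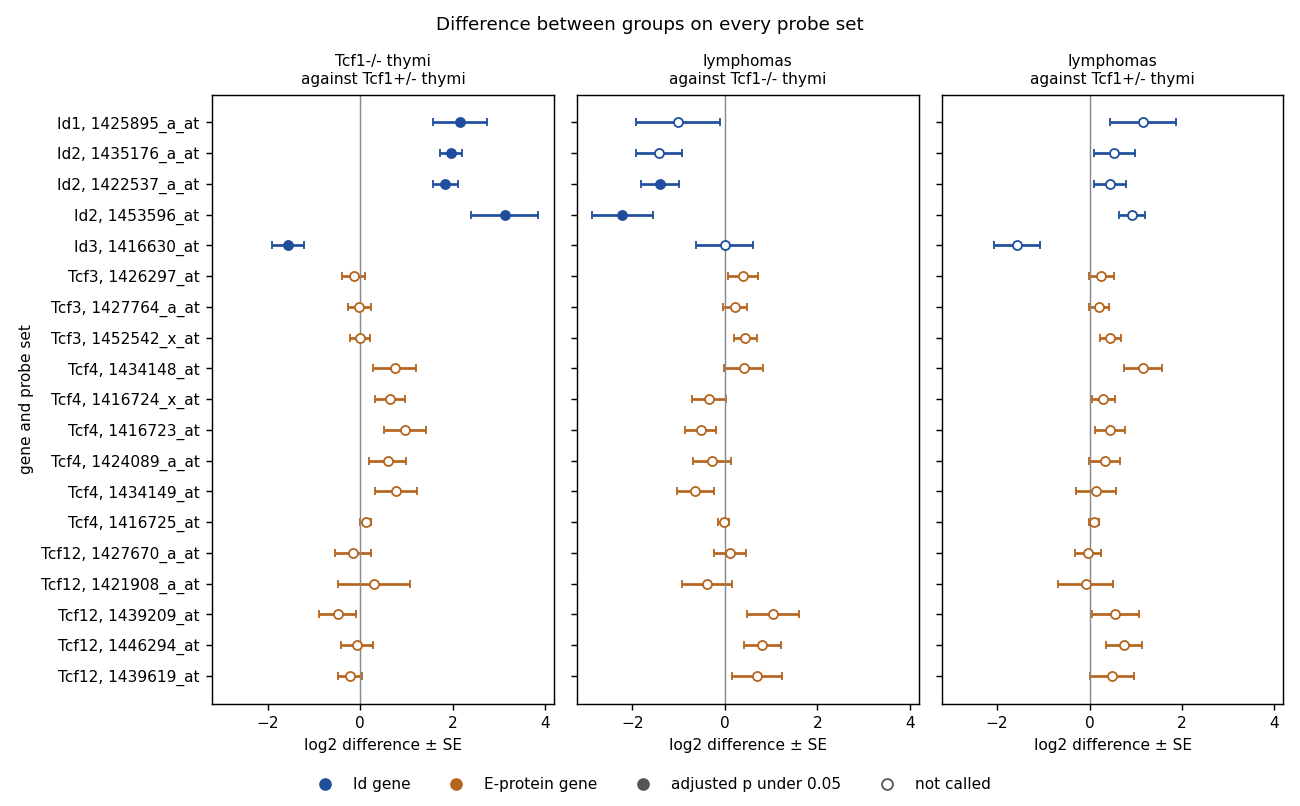
Log2 difference and standard error of each of the 19 probe sets in the 3 comparisons, from the limma fit of all probe sets. Filled points passed at an adjusted p under 0.05, and Tcf4 probe set 1416725_at did not pass the filter on low signal and was not tested. In Tcf1-/- thymi against Tcf1+/- thymi all 5 Id probe sets passed and no E-protein probe set did.

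Among the 8 lymphomas, the 15 pairs of the 6 genes were set against each other. None passed after adjustment over the 15 pairs (smallest adjusted p = 0.142, permutation test). Id2 and Tcf12 had the largest Pearson correlation (r = 0.86, exact permutation p = 0.0187, Spearman rho = 0.57, p = 0.151). It was 0.05 among the 6 lymphomas on the other arrays, which were also the lymphomas left when the 2 farthest in Id2 were set aside. Id1 and Id3 ran in opposite directions (r = -0.72, exact permutation p = 0.0378, rho = -0.36, p = 0.389), with r = -0.69 without the 2 lymphomas farthest in Id1 and -0.83 among the 6 on the other arrays. Id2 and Tcf3 had r = -0.77 and Tcf3 and Tcf12 had r = -0.79, against -0.36 and -0.44 among those 6.

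As a description over the 17 arrays, which share their groups and the 4 arrays of narrow spread, the 3 genes most like each member were found by Pearson correlation. Id2 ran closest with Lgals3, which encodes galectin-3, a lectin abundant in macrophages (r = 0.96), and then with Sash1 (0.96) and the pseudogene Gpr137b-ps (0.94). With the group means subtracted, these were 0.95, 0.91 and 0.90. Id3 ran closest with Rasgrp1, which links the T-cell receptor to Ras (0.91), the receptor segment Trav9d-3 (0.90) and Cd5, a surface protein set by receptor signal strength (0.89). Id1 ran with Dnm3, Nr3c2 and Elovl3 (0.84 to 0.85), Tcf3 with Marcksl1, Miip and Otub1 (0.89 to 0.93), Tcf4 with Slc2a3, Mapkapk2 and Sumf1 (0.87 to 0.90) and Tcf12 with Npat, Prkar2b and Depdc1a (0.93 to 0.94). Probes of Gpr137b-ps and Trav9d-3 can also detect close relatives of these genes.

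The partners of E proteins were read from lists. The part of non-T cells in this list, and in those of cofactors, turnover and inputs below, was not tested. Of 7 genes for tissue-restricted basic helix-loop-helix partners and the remaining Id protein, 4 passed the filter on low signal, and only Lyl1 was called, a factor that pairs with E proteins in blood progenitors. It was 2.75 higher in Tcf1-/- thymi than in Tcf1+/- thymi (adjusted p = 0.000642 from limma), where 14.8% of all genes were called. In lymphomas it was not called, with a difference of -1.49 from Tcf1-/- thymi (adjusted p = 0.159) that passed without the arrays of narrow spread (-2.03, adjusted p = 0.00808). Id4 was dim, with means of 4.83 in lymphomas, 4.79 in Tcf1-/- thymi and 4.94 in Tcf1+/- thymi.

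In Tcf1-/- against Tcf1+/- thymi, 2 of the 10 tested cofactors of E proteins were higher (10.1% of all genes) and none lower (4.7%). They were Lmo2, a LIM protein that bridges E-protein complexes in blood progenitors, by 3.21, and the acetyltransferase gene Kat2a, by 0.80 (adjusted p = 0.000150 and 0.0114 from limma). In lymphomas against Tcf1-/- thymi only Lmo2 was called, at -2.99 (14.7% of all genes called). Against Tcf1+/- thymi, Lmo1, a LIM protein that is a T-cell oncogene, and Kat2a were called, at 2.86 and 1.25 (12.7% of all genes). The medians of the list were 0.07, 0.02 and 0.11 in the 3 comparisons, beside -0.01, 0.10 and 0.06 over all genes. Without the arrays of narrow spread, Kat2b and Lmo4 were also called in Tcf1-/- thymi, both lower than in Tcf1+/- thymi (-0.52 and -1.24), and Lmo4 was called higher in lymphomas than in Tcf1-/- thymi (1.79).

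Of the 5 genes of E- and Id-protein turnover, 1 was called, the E3 ligase subunit gene Asb2. It was higher in Tcf1-/- thymi than in Tcf1+/- thymi, by 1.93, and lower in lymphomas than in Tcf1-/- thymi, with a difference of -2.64 (adjusted p = 0.000199 and 9.1e-05 from limma). Of all genes, 14.8% and 14.7% were called there. Against Tcf1+/- thymi no gene of this list was called in lymphomas. Skp2, Cul1, Stub1 and the Id-protein deubiquitinase gene Usp1 did not pass in any comparison.

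Genes that E proteins activate in thymocytes did not move as 1 group. Of 8 tested, 3 were higher and 4 lower in Tcf1-/- thymi than in Tcf1+/- thymi, where 10.1% and 4.7% of all genes were called, and the list median was -0.53 beside -0.01 over all genes. The lower ones were the coreceptor gene Cd4 (-2.60), the recombinase genes Rag1 and Rag2 (-2.11 and -2.02) and the repressor gene Gfi1 (-1.56). The higher ones were Notch1, the receptor that sets T-cell fate, by 1.57, the cell-cycle inhibitor gene Cdkn1a by 1.25 and the Notch target Hes1 by 1.03. In lymphomas against Tcf1-/- thymi none of the 8 was called (14.7% of all genes called). Against Tcf1+/- thymi, 2 were higher (8.49% of all genes), Hes1 (2.31) and Notch1 (2.10). There, 4 were lower (4.21% of all genes), Cd4 (-3.31), Rag1 (-2.82), Rag2 (-2.19) and Gfi1 (-0.87). Rag1 and Gfi1 missed there without the arrays of narrow spread. Cd4, Rag1 and Rag2 are also 3 of the 7 double-positive markers, which moved the same way, and Hes1 and Notch1 also answer to Notch signals.

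Of the genes that E proteins restrain, those called were higher in Tcf1-/- thymi and lower in lymphomas. Of 8 tested, 4 were higher (10.1% of all genes) and none lower (4.7%) in Tcf1-/- thymi than in Tcf1+/- thymi. They were Il2rb, a chain of the interleukin-2 and interleukin-15 receptors, by 2.14, the migration regulator Klf2 by 2.07, the interleukin-7 receptor gene Il7r by 1.93 and the egress receptor gene S1pr1 by 1.76. S1pr1 missed without the arrays of narrow spread, which left 3 of 8 (10.3% of all genes higher). In lymphomas against Tcf1-/- thymi, 5 of 8 were lower and none higher, where 8.35% of all genes were lower. They were Il7r (-3.04), Il2rb (-2.84), S1pr1 (-2.82), Klf2 (-2.24) and the chemokine receptor gene Ccr7 (-2.08). Against Tcf1+/- thymi 2 of 8 were lower in lymphomas (4.21% of all genes), Ccr7 (-1.95) and S1pr1 (-1.07), and S1pr1 missed there without those arrays. The list medians were 1.02, -2.16 and -0.43 in the 3 comparisons, beside -0.01, 0.10 and 0.06 over all genes. Il2rb is also an NK-cell marker of the list above, and Il7r, Klf2, S1pr1 and Ccr7 mark mature T cells and innate lymphoid cells as well, whose part in these counts was not tested.

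Of the 12 tested genes of the receptor and growth-factor signals that feed the Id genes, 2 were higher and 2 lower in Tcf1-/- thymi than in Tcf1+/- thymi. Over all genes, 10.1% were higher and 4.7% lower there. The receptor-induced factors Egr2 and Egr1, which act before Id3 in thymocytes, were lower (-2.40 and -2.24), and Tgfbr2 and Smad7 of the transforming growth factor beta pathway were higher (1.28 and 1.18). In lymphomas against Tcf1-/- thymi, Tgfbr2 and Smad7 were lower (-1.94 and -1.33), as were 8.35% of all genes. From Tcf1+/- thymi, lymphomas differed in 2 genes, as Egr2 and the bone morphogenetic protein receptor gene Acvrl1 were lower (-2.37 and -0.71). Over all genes, 4.21% were lower there. Tgfbr2 missed in Tcf1-/- thymi, and Acvrl1 in lymphomas against Tcf1+/- thymi, without the arrays of narrow spread, while Smad5 (0.74) and Bmpr1a (-0.52) were then called in lymphomas against Tcf1-/- thymi. Bmpr1a, Bmpr2 and Smad1, which carry bone morphogenetic protein signals, were not called in any of the 3 comparisons over all arrays. The list medians were 0.14, -0.34 and -0.47 in the 3 comparisons.

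**Figure D5:**
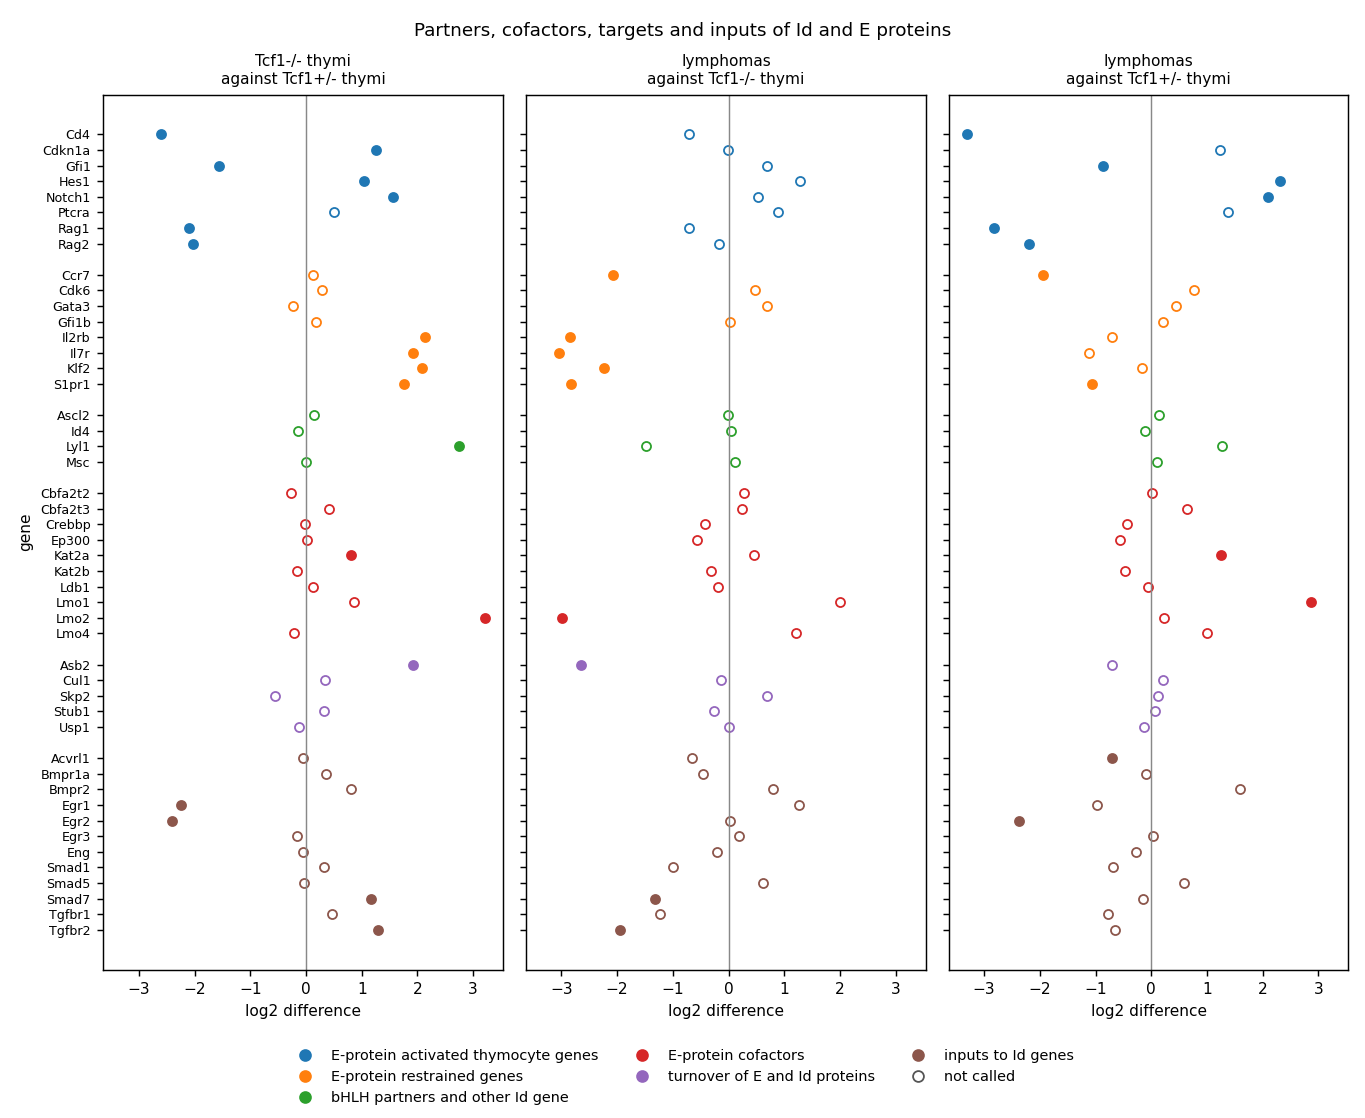
Log2 difference of each tested gene of 6 lists of E-protein targets, partners, cofactors, turnover genes and Id-gene inputs in the 3 comparisons, with filled points for an adjusted p under 0.05. Of the restrained genes, 4 of 8 were higher in Tcf1-/- thymi than in Tcf1+/- thymi (10.1% of all genes). In lymphomas against Tcf1-/- thymi 5 of 8 were lower (8.35% of all genes), and the activated genes lie on both sides of 0.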

How the data were processed

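The thymus arrays were normalized and summarized by the authors with Robust Multichip Average (RMA, version not given in the sources used here), and what they deposited is a log2 signal for every probe set. Whether all arrays were normalized together is not given in the sources used here. No scan dates were used. The labels name the tissue as homogenized thymus, while the methods speak of thymocytes. Of 45101 probe sets, 64 were controls, 34958 carried 1 gene symbol in the platform annotation, 932 several and 9147 none, and only the first kind was used. Per gene, the probe set with the highest mean was kept, and a gene was tested if it exceeded its array's 40th percentile on at least 4 arrays.

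Each pair of groups was fitted alone with limma 3.58.1 (R 4.3.3, lmFit and eBayes), and p-values were adjusted by Benjamini-Hochberg over all 13756 genes. A gene was called at an adjusted p under 0.05. The fit was tested on simulated data. Exact two-sided permutation tests and the exact Mann-Whitney U test, which the methods name, were run per gene. The 3 comparisons share groups and are not independent. No 2 arrays were identical (largest correlation 0.997). Each array is a separate mouse, and the number of arrays limits the precision.

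Mouse numbers in the labels recur across groups. Deviations from the group means of same-numbered lymphomas and Tcf1+/- thymi correlated in all 5 pairs (r = 0.25 to 0.62). Numbers 1 and 2 are those of the arrays of narrow spread in both groups, so these correlations cannot tell paired mice from the arrays. The closest partner had the same number in only 2 of 5 mice. The fit with a replicate block is given beside the results whose call it changes, and the labels state no pairing.

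The genes, gene lists and tests were chosen with earlier results of these data known. Named beyond the 6 members were up to 4 called genes of each list and comparison with the largest difference, any further called gene that completes a count (named after its values were seen), and the 3 genes most correlated with each member. Marker lists covered T cells, double-positive thymocytes, NK cells, B cells, plasmacytoid dendritic cells, macrophages and monocytes, endothelium, fibroblasts and thymic epithelium. Summed signals are sums of 2 to the power of the log2 value over the measured genes of a list. Promoter sequences are from RefSeq (GRCm38.p6), with entries used for 4 members. Alternatives were other sets of arrays, filters, probe sets, normalizations, covariates and tests. The lists without the arrays of narrow spread, and the shared mouse numbers without a block, were added after the data were seen.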

Additional observations from a re-analysis of the deposited data

Results flagged for a closer look

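Over 57 groups of values, 1 for each probe set and group, the highest or lowest array was compared with the rest of its group by Dixon's criterion, which by chance alone would single out about 2.85 at its 95% level. It singled out 4. Id1 (1425895_a_at) was at 10.56 in lymphoma replicate 5, against 5.25 to 7.35 in the other lymphomas. Lymphoma replicate 4 was low on Tcf4 probe set 1416723_at, at 6.69 against 7.68 to 8.26 in the others, and on Tcf3 probe set 1452542_x_at, at 6.07 against 6.79 to 7.42. Tcf4 probe set 1416725_at was at 4.64 in Tcf1-/- replicate 2, against 4.39 to 4.40 in the other Tcf1-/- thymi, on a probe set that did not pass the filter on low signal.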

How the results depend on the processing

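For the 18 results of a member and a comparison, 252 of 288 alternatives that left out no single mouse kept direction and call. Part of this count was fixed in advance. Settings that changed only the filter, the variance, the test or the fold threshold kept the same difference, so its direction could not change. Id1 and Id3 had 1 probe set each, so the settings on other probe sets kept their differences too. All 29 reversals, single mice included, were of values that passed neither way, the largest at 0.54, and the cause was not tested.

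Numbers of genes called moved most. Between Tcf1-/- and Tcf1+/- thymi (2037), they were 1257 with a replicate block and 1595 over the same mice without it. They were 3418 with the array set as a block and 1327 with a log2 threshold of 1. The Mann-Whitney test called 0 genes there (2978 at an unadjusted p under 0.05). Id1 (2.16), Id2 (1.96) and Id3 (-1.56) had adjusted p = 0.0917 in it. That was the smallest it gave, from its smallest possible p of 0.0159, so even full separation of the groups could not pass. Between lymphomas and Tcf1-/- thymi (2020), the numbers called were 584 with a replicate block and 951 over the same mice without it. They were 387 with Y-linked signal as a covariate, 1305 with Abl1 subtracted and 1220 with the log2 threshold. Without 1 mouse they ran from 1014 to 2203 (1014 without Tcf1-/- replicate 1, 1271 without replicate 2). Between lymphomas and Tcf1+/- thymi (1747), they were 686 over the same mice without a block, 3752 with the array set as a block, 1122 with Y-linked signal, 1030 with Abl1 subtracted and 853 with the threshold. Without the 4 arrays of narrow spread the share of higher calls was 46.4% in place of 68.2% in Tcf1-/- against Tcf1+/- thymi, and 47.5% in place of 66.9% in lymphomas against Tcf1+/- thymi.

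In Tcf1-/- against Tcf1+/- thymi, Id1 ran from 1.62 to 2.81 without 1 mouse and missed in the fit of all 17 arrays (2.16), without the 4 arrays (2.16) and over the same pairs of mice without a replicate block (2.17, adjusted p = 0.0571). Id3 missed in the fit of all 17 arrays (-1.56). Tcf3 was 0.073 without the 4 arrays and with the array set as a block. Tcf12 was 0.30 on its second probe set and -0.38 to 0.24 without 1 mouse.

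In lymphomas against Tcf1-/- thymi, Id2 passed in the fit of all 17 arrays (-1.42), without the 4 arrays and with the array set as a block (-0.90 in both), on its second probe set (-1.41), as the mean of its probe sets (-1.68), after quantile normalization (-1.43) and with Abl1 subtracted (-1.33), and ran from -1.58 to -1.19 without 1 mouse. Id3 was 0.54 with Y-linked signal, 0.030 after quantile normalization, 0.041 with medians aligned, 0.091 with Abl1 subtracted and -0.43 to 0.29 without 1 mouse. Tcf3 was -0.13 with Y-linked signal. Tcf4 was -0.35 on its second probe set and -0.23 as the mean of its probe sets. Tcf12 was -0.048 with a replicate block and over the same mice without it, -0.38 on its second probe set and -0.27 to 0.34 without 1 mouse.

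In lymphomas against Tcf1+/- thymi, Id3 passed in the fit of all 17 arrays (-1.56), with the replicate block and over the same pairs without it (-2.03 in both), with the array set as a block (-1.55), with the filter at the 60th percentile (-1.56) and after quantile normalization (-1.62), and ran from -1.79 to -1.27 without 1 mouse. Tcf4 ran from 0.93 to 1.38 without 1 mouse. Tcf3 was -0.081 with Y-linked signal. Tcf12 was 0.25 with Y-linked signal, 0.33 as the mean of its probe sets and -0.21 to 0.079 without 1 mouse.

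The replicate block changed no other member's call. In the comparisons with Tcf1-/- thymi the mouse numbers did not pair the samples (r = -0.29 to 0.12 and -0.19 to 0.09), and same-numbered mice were closest in 1 of 4 and 0 of 4 pairs. Of the lymphomas only replicates 4 and 6 had Y-linked signal, and the fit with it against Tcf1-/- thymi rests on them. Among Tcf1+/- thymi only replicate 2, on an array of narrow spread, lacked it (3.58, against 6.93 to 8.64 in the others). Fits with it against Tcf1+/- thymi depend on that array.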

Other observations

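The remaining marker lists were counted in the same fits. These called 14.8% of all genes in Tcf1-/- against Tcf1+/- thymi, and 14.7% and 12.7% in lymphomas against Tcf1-/- and Tcf1+/- thymi. Endothelial markers, of which 5 were tested, had 1 higher in Tcf1-/- thymi than in Tcf1+/- thymi, 1 higher and 2 lower in lymphomas than in Tcf1-/- thymi, and 1 higher in lymphomas than in Tcf1+/- thymi. Of 7 fibroblast markers, 3 were higher and 1 lower in Tcf1-/- thymi than in Tcf1+/- thymi. Lymphomas had 1 of them higher than Tcf1-/- thymi, and 1 higher and 1 lower than Tcf1+/- thymi. The fibroblast list holds Thy1, which is on the T-cell list as well. Of 8 thymic epithelial markers, none passed between the tumor-free groups, 3 were lower in lymphomas than in Tcf1-/- thymi and 1 was lower than in Tcf1+/- thymi. Of 7 T-cell markers, 4 were lower in Tcf1-/- thymi than in Tcf1+/- thymi, 2 were higher in lymphomas than in Tcf1-/- thymi and 2 were lower in lymphomas than in Tcf1+/- thymi. Of 7 plasmacytoid dendritic cell markers, 5 were lower in lymphomas than in Tcf1-/- thymi, and lymphomas had 1 higher and 3 lower than Tcf1+/- thymi. Without the 4 arrays of narrow spread, lymphomas had 1 plasmacytoid marker higher and 1 lower than Tcf1+/- thymi, no endothelial marker called, no fibroblast marker lower, 1 T-cell marker lower and 2 epithelial markers lower than Tcf1+/- thymi. In Tcf1-/- against Tcf1+/- thymi, 2 endothelial markers were then higher. Without those arrays, 11.4% of all genes were called in lymphomas and 22.1% in Tcf1-/- thymi, each against Tcf1+/- thymi.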
